A study of Mus musculus with 6 samples.

Results

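The synaptonemal complex and meiotic axis genes examined here are 8 genes, Syce1, Syce2, Tex12, Sycp1, Sycp2, Sycp3, Hormad1 and Hormad2, of the 22367 protein-coding genes that GENCODE M1 places on the chromosomes of the Dppa2 peak list. They were taken by gene name, and each was asked whether the midpoint of a Dppa2 peak lay within 1000 bp of one of its transcription start sites (TSSs), in which case it is called bound. The peaks come from an anti-V5 ChIP-seq of CGR8 cells, a mouse ESC line grown on gelatin without feeders, that stably expressed Dppa2 with an N-terminal V5 tag from a pPyCAG-driven vector after puromycin selection of clones. The control for peak calling was the same anti-V5 ChIP on parental CGR8 ESCs without a V5 tag. Each of these conditions had 1 library, so no replicate error, interval between replicates or test can be given, and the number of reads behind each peak is unknown here. The tagged protein was made from a vector and not from the Dppa2 locus, and a peak list holds no expression values against which the cell type could be checked.

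The synaptonemal complex is the protein ladder that holds homologous chromosomes together during meiotic prophase. SYCP2 and SYCP3 build the axial elements along each chromosome, SYCP1 forms the transverse filaments that span the gap between them, and SYCE1, SYCE2 and TEX12 belong to the central element in the middle. HORMAD1 and HORMAD2 carry a HORMA domain and sit on chromosome axes before synapsis. Both serve the surveillance of unsynapsed chromosomes there, and HORMAD1 also serves break formation. These genes are used in germ cells, and several of them are known to be silenced in somatic cells with methylation of their promoters. Dppa2 is a SAP-domain protein of early embryos, the germ line and ESCs.

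Of the 8 genes, 6 were bound by Dppa2 (Tex12, Sycp1, Syce1, Hormad1, Sycp2 and Sycp3), while 14.2% of all protein-coding genes were bound by the same rule. Syce2 and Hormad2 had no peak near any TSS. The genes were chosen with earlier results of these data known, so the count describes this library and no test was run on it. The paper checked its V5-Dppa2 ChIP at the promoter of Syce1, which it names as a Dppa2 binding site known from earlier work. Syce1, Sycp2 and Sycp3 were already known to be bound when germline genes were first listed. Of the remaining 5 genes, 3 were bound, namely Tex12, Sycp1 and Hormad1. At a score of at least 200, which is a p-value of 1e-20, 5 of the 8 genes were still bound, against 8.06% of protein-coding genes.

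The promoter sequences of the 4 bound genes that hold the E-box CACGTG are shown first, followed by Syce1, which was bound without it, and Syce2, which was not bound. Each runs 5′ to 3′ on the strand of the gene, from 200 bp before to 29 bp after its most upstream annotated TSS in the mm9 reference (NCBIM37). Capitals mark CACGTG, the palindromic site of bHLH factors such as Myc, Max and Mga, and TCCCGC or its reverse complement GCGGGA, the core of E2F sites.
Tex12 (chr9:50369344-50369573, minus strand): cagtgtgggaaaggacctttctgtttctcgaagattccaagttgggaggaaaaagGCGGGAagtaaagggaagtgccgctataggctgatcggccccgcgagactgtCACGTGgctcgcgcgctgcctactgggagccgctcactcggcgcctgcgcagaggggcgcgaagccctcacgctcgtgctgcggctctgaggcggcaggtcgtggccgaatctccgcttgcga
Sycp1 (chr3:102739994-102740223, minus strand): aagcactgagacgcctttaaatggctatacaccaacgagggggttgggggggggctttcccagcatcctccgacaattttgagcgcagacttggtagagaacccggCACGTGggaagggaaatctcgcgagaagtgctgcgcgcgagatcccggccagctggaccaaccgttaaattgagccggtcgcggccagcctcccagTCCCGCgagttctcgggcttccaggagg
Hormad1 (chr3:95363399-95363628, plus strand): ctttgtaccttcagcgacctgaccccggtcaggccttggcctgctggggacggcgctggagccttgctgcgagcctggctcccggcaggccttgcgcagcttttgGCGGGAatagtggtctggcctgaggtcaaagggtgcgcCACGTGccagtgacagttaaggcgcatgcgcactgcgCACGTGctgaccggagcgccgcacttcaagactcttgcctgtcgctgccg
Sycp3 (chr10:87922114-87922343, plus strand): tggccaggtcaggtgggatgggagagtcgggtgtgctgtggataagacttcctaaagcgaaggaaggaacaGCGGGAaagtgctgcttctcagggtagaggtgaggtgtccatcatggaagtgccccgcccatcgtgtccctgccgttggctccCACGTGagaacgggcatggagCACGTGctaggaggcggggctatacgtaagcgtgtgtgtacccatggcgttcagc
Syce1 (chr7:147973724-147973953, minus strand): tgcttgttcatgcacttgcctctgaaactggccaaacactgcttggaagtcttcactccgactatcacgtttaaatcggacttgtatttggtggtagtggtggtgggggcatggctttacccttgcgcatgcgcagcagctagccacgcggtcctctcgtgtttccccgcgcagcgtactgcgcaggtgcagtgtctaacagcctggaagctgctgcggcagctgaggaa
Syce2 (chr8:87395810-87396039, plus strand): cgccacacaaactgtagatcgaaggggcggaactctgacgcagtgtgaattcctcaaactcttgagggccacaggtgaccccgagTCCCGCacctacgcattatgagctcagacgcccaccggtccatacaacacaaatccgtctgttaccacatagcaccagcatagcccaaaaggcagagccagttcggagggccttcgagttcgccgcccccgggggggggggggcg
Hormad1 and Sycp3 each had a pair of E-boxes, and Tex12 and Sycp1 had 1 each. The stretch of Syce1 had neither kind of capital, and that of Syce2 had 1 E2F-type core and no E-box. Sycp2, also bound, and Hormad2, not bound, had neither motif over the same stretch and are not shown.

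Among the central element genes, Tex12 had the strongest peak of the 8 genes. Tex12 (ENSMUSG00000032065) occupies 50365253 to 50369373 of chromosome 9 in mm9, is read from the minus strand and has 1 annotated TSS. Its peak spanned 50368624 to 50369880, a width of 1257 bp, and the midpoint lay 121 bp downstream of the TSS in an intron. The deposited score, which is −log10 of the peak-calling p-value multiplied by 10, was 1470 for Tex12, rank 15 of 3336 peaks and 6.45 times the median of 228. Syce1 (ENSMUSG00000025480), on the minus strand of chromosome 7, had a score of 785 and rank 105. Its peak covered 147973020 to 147974320, with the midpoint in the coding part of exon 1. Syce2 (ENSMUSG00000003824), whose product forms a complex with TEX12, lies on the plus strand of chromosome 8 from 87396010 to 87412120 and had no peak. From its 3 TSSs, the nearest midpoint was 64.9 kb away, at Mast1. The central element genes thus included the first and the third highest score of the 8 genes and a gene without a peak.

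Sycp1 (ENSMUSG00000027855), which encodes the transverse filament protein, had the second highest score of the 8 genes, 1059, at rank 40. The gene occupies 102622422 to 102740023 of chromosome 3 and is read from the minus strand. Its peak covered 102739208 to 102740427, 1220 bp in all, and the midpoint was in an intron 206 bp downstream of the TSS at 102740023. A second annotated TSS, at 102637717 within the gene body, was 102100 bp from this midpoint and had no peak of its own.

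Both axial element genes were bound, with lower scores. Sycp2 (ENSMUSG00000060445) is read from the minus strand and occupies 178079998 to 178142390 of chromosome 2. Its peak, from 178141416 to 178142748, had a score of 340 and rank 879. Of its 4 TSSs, the outer pair at 178142390 and 178142127 lay inside the peak, 308 bp and 45 bp from the midpoint, and the inner pair was 32107 bp and 32447 bp away from it. Sycp3 (ENSMUSG00000020059), on the plus strand of chromosome 10 from 87922314 to 87935981, had the weakest peak of the 6, with a score of 139 and rank 2735. This peak, from 87921930 to 87923479, was also the widest, at 1550 bp, and its midpoint was farthest from a TSS, 295 bp downstream in an intron. Sycp3 was therefore the bound gene nearest to the limit of 1000 bp, and also the one lost at a score of at least 200. The first gene on the other side of the limit was Syce2, so no member lay near it.

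The HORMA-domain genes differed from each other. Hormad1 (ENSMUSG00000028109), on the plus strand of chromosome 3 from 95363599 to 95391593, had a peak from 95362876 to 95364153 with a score of 369 and rank 735. It was the only 1 of the 6 whose midpoint lay upstream of the gene, 85 bp before the nearest of 3 TSSs that are within 2 bp of each other. Hormad2 (ENSMUSG00000020419), a minus-strand gene at 4245817 to 4341108 of chromosome 11, had no peak at any of its 7 TSSs. The nearest midpoint was 153 kb away, at Mtmr3. Hormad2 thus had the most annotated TSSs of the 8 genes and none of them near a midpoint, while Tex12 and Syce1 were bound with 1 TSS each.

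**Figure D1:**
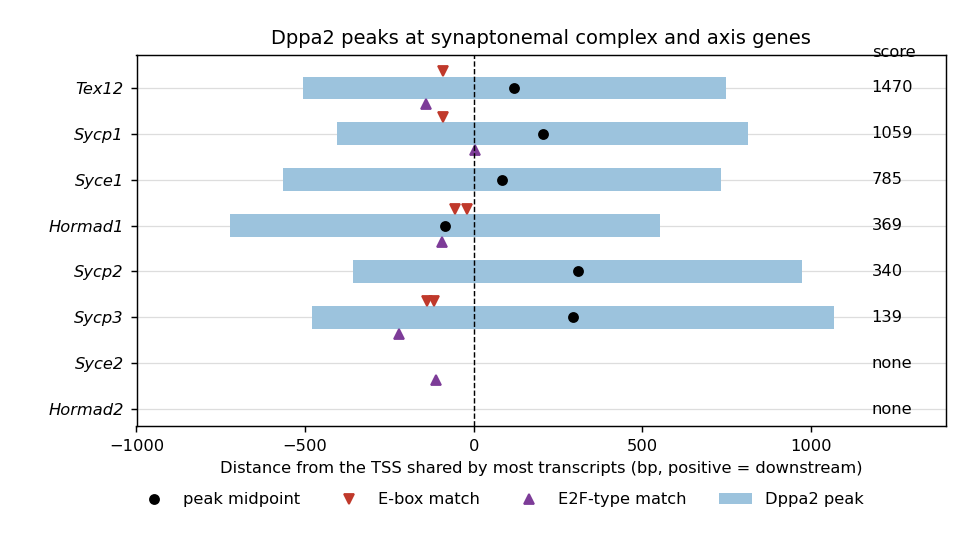
Dppa2 peaks at the 8 genes against distance from the TSS shared by most transcripts (bp, positive is downstream), ordered by score, where bars are peak intervals, dots their midpoints, and triangles the matches to CACGTG (E-box) and TCCCGC (E2F-type) within 250 bp before to 49 bp after the TSS. All 6 peaks cross the TSS, 5 of the midpoints lie downstream of it, and Syce2 and Hormad2 have no bar.

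In proportion, the 6 peaks varied less in width than in score. The same held over all peaks, with quartiles of 1183 and 1776 bp for width and 156 and 348 for score. The widths of the 6 peaks ran from 1220 to 1550 bp around a median of 1290 bp, and 5 of the 6 were narrower than the median of all peaks, 1433 bp. Their scores ran from 139 to 1470, over which 5 exceeded the median of all peaks. The midpoints ran from 85 bp upstream to 295 bp downstream of the nearest TSS with a median of 102 bp downstream, and the 3169 bound protein-coding genes had a median of 121 bp. With 1 library, the order of the scores has no error attached.

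**Figure D2:**
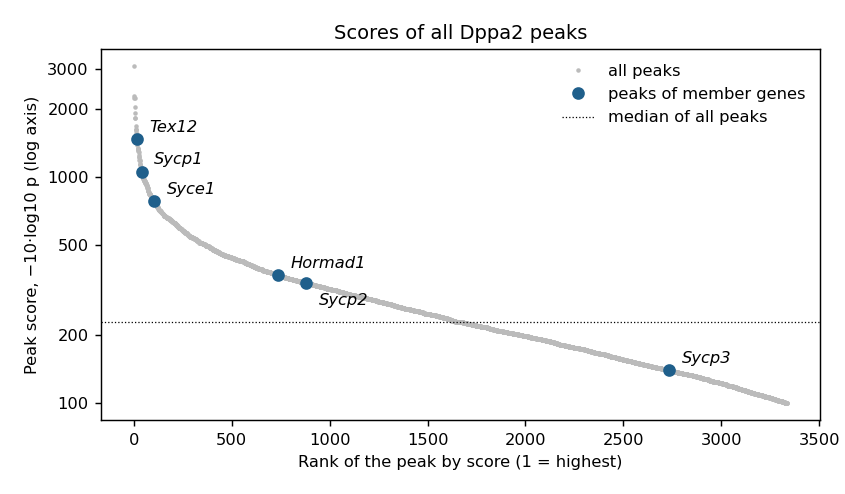
Score of every Dppa2 peak against its rank, on a log axis for the score, with the peaks of the 6 bound genes in blue and the median of all peaks as a dotted line. Tex12, Sycp1 and Syce1 sit on the steep left end at ranks 15, 40 and 105, Hormad1 and Sycp2 above the median, and Sycp3 below it.

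The 6 peaks belonged to these genes alone. No other annotated gene had a TSS within 1000 bp of any of their midpoints. Over the whole list 528 of the 3336 peaks, or 15.8%, had TSSs of at least 2 genes within that distance. Most peaks were thus not shared, as at these 6. The list holds peaks named after TSSs and may lack Dppa2 sites elsewhere, so distances run to the next listed peak. This was 344 kb away for Sycp1, 291 kb for Syce1, 98.3 kb for Tex12, 62.8 kb for Hormad1 and 43.8 kb for Sycp3. Sycp2 was the exception, with a peak at Ppp1r3d, a regulatory subunit gene of protein phosphatase, at 6.74 kb and with a score of 508. Reads with several alignments had been kept at their best one, so repeated sequence was counted in each peak as stretches of 36 bases (36-mers). In Syce1, Sycp1, Sycp2 and Sycp3 none of the 36-mers occurred more than once in mm9, and the share was 6.22% in Tex12 and 2.65% in Hormad1. The most repeated 36-mer occurred 695979 times in mm9 for Tex12 and 5 times for Hormad1. The part of the repeated 36-mers in the scores of Tex12 and Hormad1 was not tested.

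Promoter CpG content was measured over 1000 bp around the TSS shared by most transcripts, as the ratio of observed CpG dinucleotides to the number that the C and G content predicts. The bound genes had intermediate values. Sycp1 had 0.720 with 65 CpGs, Hormad1 0.694 with 47, Tex12 0.667 with 54, Sycp2 0.642 with 51, Sycp3 0.606 with 47 and Syce1 0.519 with 43. All 6 were below the median of bound protein-coding genes, 0.776, between the percentiles 17.2 for Syce1 and 38.9 for Sycp1 among them. Measured over the peaks themselves, 5 of the 6 were below the median of all peaks, 0.713, and Sycp1, at 0.796, was above it. Over the 1000 bp all 6 were also above the median of protein-coding genes without a peak, 0.467. The GC content showed the same placing for most of them, from 52.2% in Hormad1 to 60.1% in Sycp1, with medians of 63.2% in bound genes and 53.3% in those without a peak. Hormad1 was the exception, below both medians.

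Over these 1000 bp, the unbound members lay on opposite sides of the bound ones. Syce2 had a ratio of 0.753, 68 CpGs and a GC content of 60.6%, each higher than in any bound member, and Hormad2 had a ratio of 0.495 and 34 CpGs, both lower than in any bound member. For the ratio this placing was lost on both sides over 500 bp, and for Syce2 alone over 2000 bp. Over 500 bp Syce2 had 0.870 and Tex12 0.881, and Hormad2 had 0.590 and Sycp2 0.570. Over 2000 bp Syce2 had 0.675 and Sycp1 0.694. Hormad2, at 0.430, stayed below every bound member at this length, the lowest of which was Syce1 at 0.480. Over all protein-coding genes the share bound rose with the ratio, from 0.715% in the lowest decile to 34.8% in the highest. In the deciles that hold the members it was 12.1% for Syce1 and Hormad2, 14.9% for Sycp2 and Sycp3, 16.7% for Tex12, Sycp1 and Hormad1, and 20.3% for Syce2. Within these deciles the scores of the bound members varied widely. Tex12 ranked 1 and Sycp1 ranked 4 of 374 bound genes, and Syce1 ranked 13 of 271. Hormad1 ranked 61 of 374, Sycp2 69 of 334 and Sycp3 263 of 334, the last below the median score of its decile, 207.

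**Figure D3:**
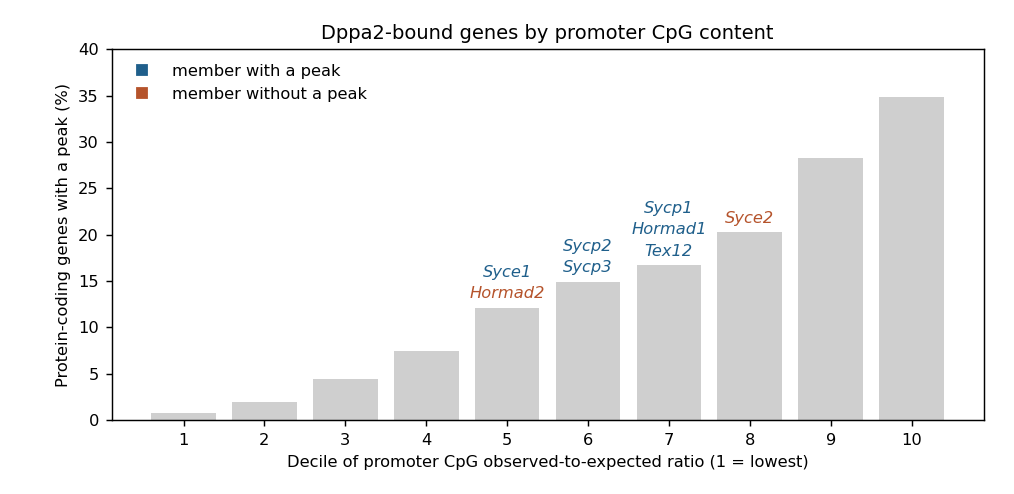
Share of protein-coding genes with a Dppa2 peak (%) in each decile of the promoter CpG observed-to-expected ratio, from the lowest (1) to the highest (10), with the 8 genes named above the bar of their decile, in blue where bound. The bars rise from 0.715% to 34.8%, and the genes lie between deciles 5 and 8.

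**Figure D4:**
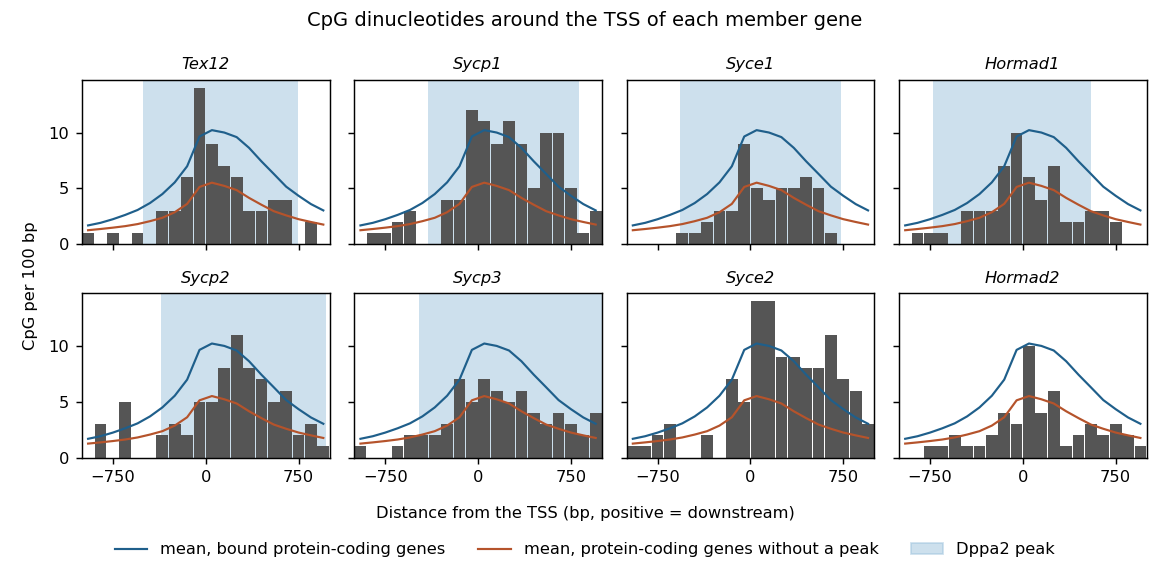
Number of CpG dinucleotides in each 100 bp from 1000 bp before to 1000 bp after the TSS of the 8 genes (grey bars), with the mean over bound protein-coding genes (blue line) and over those without a peak (orange line), and the Dppa2 peak shaded. Tex12 reaches 14 CpGs in the 100 bp before the TSS and falls off on both sides within the peak, whose shading at Sycp3 goes on beyond the plot.

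Of 8 short motifs searched on both strands from 250 bp before to 49 bp after the TSS shared by most transcripts, the E-box CACGTG differed most from its share in other promoters. It was present in 4 of the 8 genes, Tex12, Sycp1, Hormad1 and Sycp3, all of them bound, and in 7.75% of all protein-coding promoters. Among all bound promoters its share was 8.52%. In the members' deciles of CpG content it was 9.81% among all promoters and lower, 8.58%, among the bound ones. The E-box began 93 bp upstream of the TSS in Tex12 and 94 bp upstream in Sycp1. In Hormad1 it began 58 and 21 bp upstream, and in Sycp3 141 and 120 bp upstream. The same 4 genes and Syce2 held TCCCGC, the E2F-type core. It was in 24.5% of all promoters and 41.6% of bound promoters. In the members' deciles it was in 33.0% of all promoters and 36.2% of the bound ones. Both motifs occurred together in 2.52% of all protein-coding promoters. That joint share was not taken within the members' deciles, where each motif alone was more frequent than over all promoters. Syce1 and Sycp2 were bound with neither. A match is a run of letters and not a site shown to be used, and the motif was singled out after all 8 had been searched.

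The other motifs differed less from their share in all promoters than the E-box did. GGGCGG, the GC box, was in Sycp2, Sycp3, Syce2 and Hormad2 and in 43.7% of all promoters. CAACNG, the core of Myb sites, was in Sycp1, Sycp3 and Hormad2 and in 33.2%. CNCCTCAG, a sequence linked with the meiotic factor STRA8, was in Sycp1, Tex12 and Hormad2 and in 8.20%. CCAAT was in Sycp3 alone among the members and in 37.7% of promoters, TATAAA in Sycp2 alone and in 13.4%, and the Ets core CCGGAAG in Sycp2 alone and in 10.8%. None of the matches in the members overlapped a match to another of the motifs.

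Of 11 further synaptonemal complex and axis genes 1 was bound, or 9.09%, which is near the 14.2% of all protein-coding genes. It was Stag3, a meiotic cohesin subunit, with a score of 125 at rank 2949, and its peak also lay within 1000 bp of a TSS of Gpc2. Syce3, a central element gene, was 32.7 kb from the nearest midpoint, Sycp2l, the paralogue of Sycp2, 66.9 kb, and Six6os1, another central element gene, 605 kb. The cohesin genes Rec8, Rad21l and Smc1b had no peak, and neither had Trip13, whose ATPase removes HORMAD proteins from synapsed axes, nor Iho1, Mei4 and Rec114, which act in break formation on the axis. The ratio of observed to expected CpG was 0.762 at Stag3 and ran from 0.0467 at Iho1 to 0.865 at Trip13 among the genes without a peak.

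Among 15 genes of recombination on the axis found in the annotation, 2 were bound. These were Spata22, which acts with MEIOB on recombination intermediates, with a score of 834 at rank 84, and Hsf2bp, a cofactor of strand exchange, with a score of 484 at rank 397. Spo11, the break-forming enzyme, Dmc1, the meiotic recombinase, and Msh4, a crossover factor, were among the 13 without a peak. Of 5 genes of telomere attachment and movement, 3 were bound, namely Speedya with a score of 466, Terb1 with 165 and Sun1 with 135, while Majin and Kash5 were not. The HORMA-domain genes Mad2l1 and Mad2l2, which work outside meiosis, had no peak. In all, 6 of 33 listed genes, or 18.2%, were bound, close to the 14.2% of all protein-coding genes. At a score of at least 200 Spata22, Hsf2bp and Speedya were left, the last being 1 of the 5 telomere genes. The share of all protein-coding genes at that score was 8.06%. None of the 6 peaks at listed genes scored as high as those of Tex12 and Sycp1. The peak of Spata22 scored higher than that of Syce1, which had 785. Those of Hsf2bp and Speedya scored higher than those of Hormad1, Sycp2 and Sycp3. The peaks of Stag3 and Sun1 scored lower than those of all bound members.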

How the data were processed

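The V5-Dppa2 library was the 1 of 6 samples with a peak list, and the remaining 5 were not analysed here. Per the submitters' notes and methods, the authors removed low-complexity reads, mapped to mm9 with Bowtie 0.12.7 (seed of 36 bases, at most 2 mismatches), removed duplicates, and called peaks with MACS 1.4.2 at a shift size of 75 bp against the control ChIP, with a p-value limit of 1e-10 and a minimum of 100 reads. The deposited score is −log10 of that p-value, multiplied by 10. The list holds peaks named after TSSs, so it may lack sites elsewhere, which were not analysed here. Intervals were read as BED, so that 1 was added to each start.

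Midpoints were set against all TSSs of GENCODE M1 on NCBIM37 (mm9). Promoter sequences are from that reference. RefSeq starts of the 8 genes (GRCm38.p6), all placed by exact sequence match, were an alternative. By rule, all 8 genes, the bound genes of the further lists, and the genes at the nearest peaks of unbound members are named. Unbound genes of the further lists and Ppp1r3d were named after their values were seen. Members and lists were chosen with earlier results of these data known. Of 35 further genes, 33 were found by symbol or earlier symbol, and Top6bl and Terb2 were not. Distances, composition and 36-mer counts were checked on simulated data. Python 3.11.15, numpy 2.4.6, pandas 2.3.3, pysam 0.24.0, numba 0.67.0 and matplotlib 3.10.9 were used.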

Additional observations from a re-analysis of the deposited data

How the results depend on the processing

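No paired analysis was possible because 1 library has a peak list and no conditions were tested against each other, and for the same reason no replicate could be left out. The same 6 members were bound with windows of 500, 2000 and 5000 bp and with any base of the peak within 1000 bp. These settings could not change the set. Every bound midpoint lay within 295 bp of a TSS, and Syce2, the nearest unbound member, was 64.9 kb from a midpoint. The 6 were also bound with TSSs of protein-coding transcripts. As alternatives chosen after seeing the data, they were bound with RefSeq starts or only the TSS shared by most transcripts. A score of at least 200 left 5 of 8 members, 3 further genes and 8.06% of protein-coding genes, since fewer peaks enter. Leaving out Syce1, Sycp2 and Sycp3 left 3 bound members by construction.

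The median CpG ratio of bound members, 0.654, was 0.662 over 500 bp, 0.545 over 2000 bp and 0.660 at the most upstream TSS, and their median GC content, 57.55%, was 61.9%, 49.85% and 57.0%. For the unbound pair the CpG median of 0.624 was 0.730 over 500 bp and 0.553 over 2000 bp, and GC content, 56.65%, was 61.3% and 52.5%. The unknown depth limits what an absent peak shows at Syce2 and Hormad2.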
